A study of Bubalus bubalis with 6 samples.

Results

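Skeletal muscle fibres form when committed myoblasts recognise one another, adhere and merge their membranes into a multinucleated myotube. Genes that act in these steps were followed in buffalo (Bubalus bubalis) muscle stem cells (MuSCs), primary cells isolated from fetal longissimus muscle with collagenase and trypsin. The genes were taken by symbol, from a list drawn up with earlier results of these data known: TMEM8C (also called MYMK), CDH15, CDH2, JAM2, JAM3, ADAM12, CDON, BOC and NEO1. The 10 symbols given stand for 9 genes, since TMEM8C and MYMK are names of the same gene, and all 9 were found among the 24616 genes listed and passed the filter on low counts. The polyA RNA-seq set held 6 samples, 3 grown in growth medium (GM), where MuSCs proliferate, and 3 kept in differentiation medium (DM). The labels name no genotype, treatment or age that sets the samples apart beyond the medium, and give neither the time spent in DM nor whether each sample was a culture or a fetus of its own, so p-values measure the spread between these samples, which may be technical.

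Each product has a known place in the sequence from contact to fusion. TMEM8C, or myomaker, is a multipass membrane protein of myoblasts that is required for their membranes to merge. CDON, BOC and neogenin (NEO1) are related surface receptors with immunoglobulin and fibronectin repeats. CDON and BOC bind cadherins at cell contacts and Hedgehog ligands, and neogenin binds netrins and repulsive guidance molecules. M-cadherin (CDH15) and N-cadherin (CDH2) hold muscle cells together in a calcium-dependent way through catenins and actin. JAM2 and JAM3 are immunoglobulin-type junctional adhesion molecules, and ADAM12 (meltrin alpha) is a membrane-anchored disintegrin and metalloprotease of fusing and regenerating muscle.

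The counts assigned to genes ranged from 36657735 to 40305237 per GM sample and from 35615864 to 38177614 per DM sample. DM replicate 3 stood apart from the other DM samples. The chi-square of its gene counts against theirs, divided by its degrees of freedom, was 42.5 and 43.3, whereas DM replicates 1 and 2 gave 12.2 and pairs of GM samples 6.43 to 11.04. Values without it are given beside the genes named below whose call it changes. Expression is given as CPM, counts divided by library size after TMM normalization, for the same gene across samples, and as the deposited RPKM, read counts scaled by gene length and library, where levels of different genes are compared. The DM samples were compared with the GM samples by edgeR's quasi-likelihood test with Benjamini-Hochberg adjustment over the 15576 genes with at least 10 counts in total. A log2 fold change is the difference of DM minus GM on the log2 scale, with its standard error, and a gene was called when this was above 1 or under -1 with an adjusted p under 0.05.

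The labelled cell type was checked against its markers. Of 12 myogenic markers tested, 9 were called, 7 higher and 2 lower in DM. Of all tested genes 25.3% were called, 15.0% higher and 10.3% lower. The summed level of the 12 markers was 2787 to 3327 CPM in GM samples and 5944 to 8115 CPM in DM samples. The rising markers included MYOG, the transcription factor of early differentiation, with a log2 fold change of 1.66 ± 0.15, the neonatal myosin heavy chain MYH8 at 7.19 ± 0.24 and muscle creatine kinase, CKM, at 6.32. The others called higher were MYH3 at 2.58, ACTA1 at 3.14, TNNT3 at 4.82 and MYF6 at 3.98. The falling ones were MYF5, a factor of undifferentiated myoblasts, at -2.70, and PAX3 at -4.96. PAX3 was near the floor, at 0.0528 to 0.144 CPM in GM and 0 CPM in DM samples. Its call was lost without GM replicate 2 (adjusted p = 0.0643, edgeR). MYOD1 at 0.90, PAX7, the stem cell factor, at -0.92 and DES, or desmin, at -0.15 were not called. The non-calls of MYOD1 and PAX7 rest on single libraries, since MYOD1 passed at 1.14 (adjusted p = 1.88e-13, edgeR) without DM replicate 3, where it was at 55.3% of the mean of the other DM samples, and PAX7 at -1.11 (adjusted p = 0.00191) without DM replicate 1. With single samples left out 8 to 10 of the 12 were called. Fibroblast markers moved as well: of 7 tested, 5 were called, all higher in DM, and their summed level, mostly collagens, was 25275 to 25502 CPM in GM and 77363 to 97129 CPM in DM samples. POSTN, or periostin, went the other way, at -0.93 (adjusted p = 0.00316), and at -1.32 (adjusted p = 1.25e-16), a call, without DM replicate 3, where it was at 195% of the mean of the other DM samples. PDGFRA, also on this list, was at 563 to 594 CPM in GM and 650 to 977 CPM in DM samples. Its log2 fold change of 0.58 (adjusted p = 0.00252, edgeR) was under the fold needed for a call. TCF21 had at most 7 counts in any sample and did not enter the test. The part that this list has in the results was not tested. Of other cell types, the defining markers PTPRC (leukocytes), PECAM1 (endothelium) and SOX10 (glia) had at most 2, 8 and 7 counts in any sample. Other genes of these lists moved at low levels, with 4 of 7 endothelial markers called (1 higher, 3 lower), 2 of 3 leukocyte markers (1 higher, 1 lower) and 1 of 5 neural and glial markers (lower). TEK rose by 1.51 on the log2 scale from 1.47 to 4.198 CPM, and the monocyte gene CD14 by 2.75 from 1.09 to 7.396 CPM. Of 5 adipocyte markers tested, 2 were called. These were FABP4, higher at 4.38 (adjusted p = 0.000448, edgeR), and PPARG, lower at -3.73 (adjusted p = 1.1e-05, edgeR). Summed smooth muscle and pericyte markers were at 1343 to 1543 CPM in GM and 1657 to 2006 CPM in DM samples, with 1 of 7 called, PDGFRB at 1.78. The other lists were low: neural and glial markers, mostly TUBB3, were at 50.2 to 54.0 CPM in GM and 31.1 to 38.0 CPM in DM, and endothelial, leukocyte and adipocyte markers lay at 1.13 to 13.4 CPM in all samples.

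TMEM8C and BOC were each over 4-fold higher in DM samples (4.19-fold and 4.46-fold), CDH2 was 2.74-fold lower, and the other 6 differed by less than 2-fold. Thus 3 of the 9 were called, 2 higher and 1 lower, where 25.3% of all tested genes were called, 15.0% higher and 10.3% lower. An adjusted p under 0.05 with no minimum fold change was reached by 5 of the 9, against 63.0% of all tested genes. These were TMEM8C, BOC and CDON, higher in DM (31.6% of tested genes), and CDH15 and CDH2, lower in DM (31.4%). In CPM, the same number, 5, had GM and DM samples that did not overlap, against 68.8% of all tested genes. These shares are near the background, so the list as a whole did not stand out by how many of its genes changed. Its median log2 fold change was 0.08, beside 0.03 over all tested genes.

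**Figure D1:**
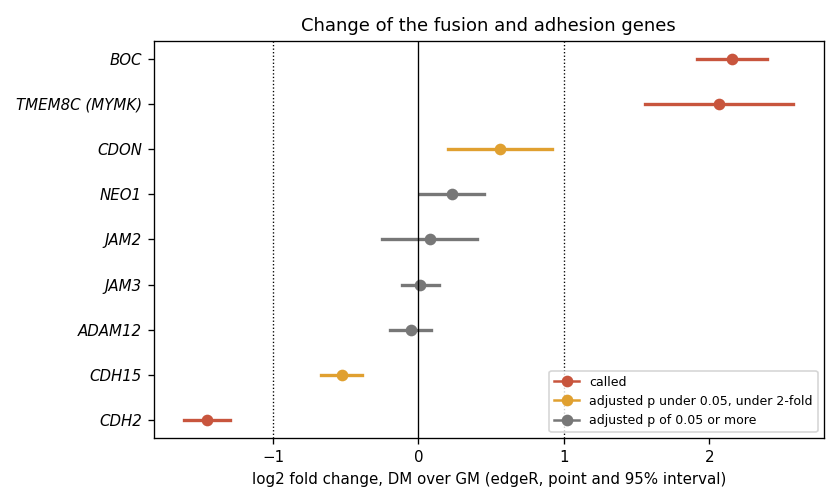
Log2 fold change of each of the 9 genes (DM over GM, horizontal axis), with 95% intervals from edgeR's fit. Red marks called genes, yellow an adjusted p under 0.05 with less than a 2-fold change and grey an adjusted p of 0.05 or more, and dotted lines mark 2-fold changes. The point for each gene is its fitted value: BOC at 2.16 and TMEM8C at 2.07 lie to the right of the 2-fold line, CDH2 at -1.45 lies to the left of it, and the others lie between the lines.

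TMEM8C (ENSBTAG00000013242) lies on chromosome 11 from 104455975 to 104464046 on the minus strand. The tables carry cattle Ensembl identifiers and name no genome build, so this and the positions below are cattle positions as listed. It had 497, 260 and 515 counts in GM replicates 1 to 3 and 1366, 1466 and 1947 counts in DM replicates 1 to 3. This was 11.98, 6.25 and 13.6 CPM in GM and 40.4, 40.1 and 52.6 CPM in DM. The groups did not overlap, and GM replicate 2 was the lowest sample and DM replicate 3 the highest. The mean was 10.6 ± 3.86 CPM in GM and 44.4 ± 7.14 CPM in DM (SD, n = 3 each). The log2 fold change was 2.07 ± 0.23, or 4.19-fold with a 95% interval of 2.94 to 5.97 (adjusted p = 1.79e-05, edgeR). Of all tested genes, 7.45% rose more. With single samples left out the log2 fold change ranged from 1.80, without GM replicate 2, to 2.28. By RPKM, TMEM8C went from above 51.7% of tested genes in GM to above 83.4% in DM.

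The low value in GM replicate 2 was shared by several differentiation genes but not by all myogenic markers. TMEM8C in that sample was 48.9% of the mean of the other GM samples. The embryonic myosin heavy chain MYH3 was at 49.7%, MYH8 at 48.6%, skeletal actin ACTA1 at 43.8%, CKM at 38.4%, TNNT3 at 63.6% and MYOG at 67.2% of theirs. DES was at 98.0%, and MYF6, at a low level, at 126%. Of the other fusion and adhesion genes, CDON was at 81.2%, BOC was at 108%, CDH15 at 97.8%, CDH2 at 96.0%, JAM2 at 98.3%, JAM3 at 99.4%, ADAM12 at 104% and NEO1 at 91.2%. Transcripts of TMEM8C were thus already present in each GM sample, and the GM sample lowest in MYH3, MYH8, ACTA1 and CKM was also lowest in TMEM8C. In bulk samples, fewer cells expressing a gene and less RNA of it per cell cannot be told apart.

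**Figure D2:**
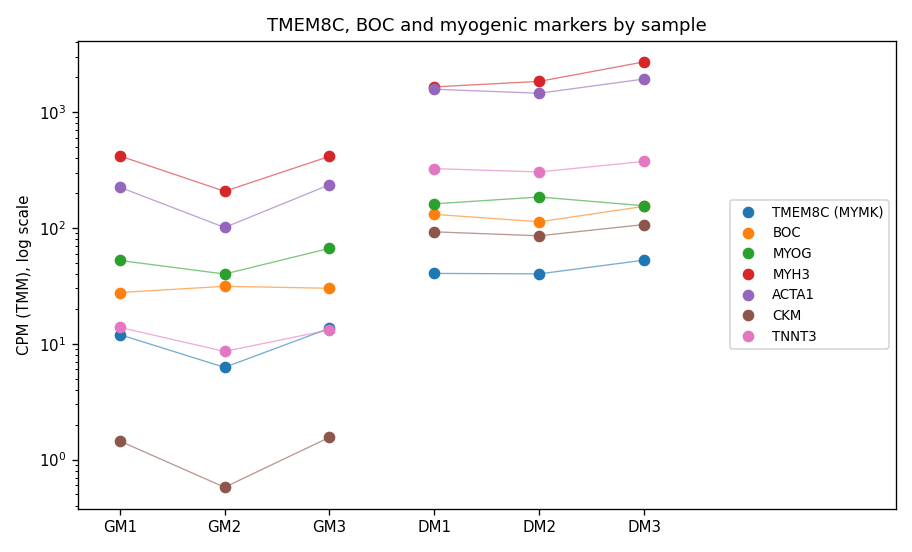
Level of TMEM8C, BOC and myogenic markers in each of the 6 samples, as CPM on a log10 axis. Each colour is a gene, and lines only join its points within a medium. TMEM8C is at 6.25 CPM in GM replicate 2 and at 11.98 and 13.6 CPM in the other GM samples, a dip that MYOG, MYH3, ACTA1, CKM and TNNT3 share and BOC, at 31.3 CPM there, does not.

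The 5 genes whose log2 CPM followed TMEM8C most closely over the 6 samples, of 12458 compared, were CHRND, ITGA11, MEI1, NFATC2 and CACNA1S, with Pearson's r from 0.998 to 0.999. CHRND encodes the delta subunit of the muscle acetylcholine receptor, CACNA1S the calcium channel subunit of the muscle T-tubule, ITGA11 a collagen-binding integrin subunit and NFATC2 a calcium-regulated transcription factor. CHRND was at 11.5, 7.11 and 13.1 CPM in GM and 31.7, 33.6 and 41.2 CPM in DM samples. All samples of a medium share its treatment and an r above 0.9 was reached by 2464 genes, so these values describe likeness only.

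Of the 3 related receptors, BOC rose, CDON was 1.48-fold higher and NEO1 did not pass the test. BOC (ENSBTAG00000013909, chromosome 1, 58428032 to 58464999, plus strand) had 27.7, 31.3 and 30.1 CPM in GM samples and 131, 113 and 153 CPM in DM samples. Every DM sample lay far above every GM sample. Its log2 fold change was 2.16 ± 0.11, or 4.46-fold with a 95% interval of 3.77 to 5.27 (adjusted p = 5.58e-08, edgeR), and 6.97% of tested genes rose more. It ranged from 2.04 to 2.27 with single samples left out. BOC was above 52.7% of tested genes by RPKM in GM and above 85.0% in DM.

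CDON (ENSBTAG00000009315, chromosome 29, 29694499 to 29757830, minus strand) had 20.5, 15.7 and 18.1 CPM in GM samples and 22.8, 22.8 and 34.5 CPM in DM samples. The groups did not overlap, but the gap between GM replicate 1 and the lower DM samples was small and DM replicate 3 was 151% of the mean of the other DM samples. The log2 fold change was 0.56 ± 0.16 (adjusted p = 0.0111, edgeR), under the fold needed for a call. Without DM replicate 3 it was 0.34 with an adjusted p of 0.0045, and without GM replicate 2 it was 0.47 with an adjusted p of 0.0570, past the threshold. Over all alternatives tried on the test of no change the adjusted p ranged from 0.0011 to 0.0570.

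NEO1 (ENSBTAG00000004990, chromosome 10, 19795806 to 19959384, plus strand) had 89.9, 79.6 and 84.6 CPM in GM samples and 105, 110 and 83.2 CPM in DM samples. DM replicate 3 fell within the GM range, while the other DM samples lay above it. The log2 fold change was 0.23 ± 0.10 with a 95% interval of 0.01 to 0.45 (adjusted p = 0.0666, edgeR). Without DM replicate 3 it was 0.35 with an adjusted p of 9.41e-05, and DESeq2 gave an adjusted p of 0.0413 on all samples. The adjusted p ranged from 9.41e-05 to 0.281 over the alternatives on the test of no change, and the RPKM filter of the study's methods gave 0.0264, so whether NEO1 passed depended on that sample, the tool and the filter.

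The make-up of the receptor group differed between the media. The summed RPKM of CDON, BOC and NEO1 was 33.0 ± 1.33 in GM and 64.6 ± 3.85 in DM samples. BOC made up 24.1, 29.4 and 27.1% of this sum in GM and 56.5, 51.9 and 62.1% in DM samples. NEO1 went from 61.2, 58.5 and 59.5% to 35.5, 39.4 and 26.4%. NEO1 was the leading receptor in each GM sample and BOC in each DM sample. The ratio of BOC to CDON by RPKM was 1.64, 2.43 and 2.02 in GM and 6.98, 6.01 and 5.41 in DM samples, a 3.04-fold difference. An exact two-sided permutation test gave p = 0.1, which is the lowest value possible with 3 samples in each group. Adjusted over the 4 ratios examined (Benjamini-Hochberg) it was 0.2, so no ratio could reach the threshold in this design. The ratio of NEO1 to CDON was 4.17, 4.83 and 4.45 in GM and 4.38, 4.57 and 2.29 in DM samples (exact permutation p = 0.5, adjusted 0.667), with DM replicate 3 alone low. Without that sample the difference of the log2 ratio went from -0.32 to 0.0006.

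**Figure D3:**
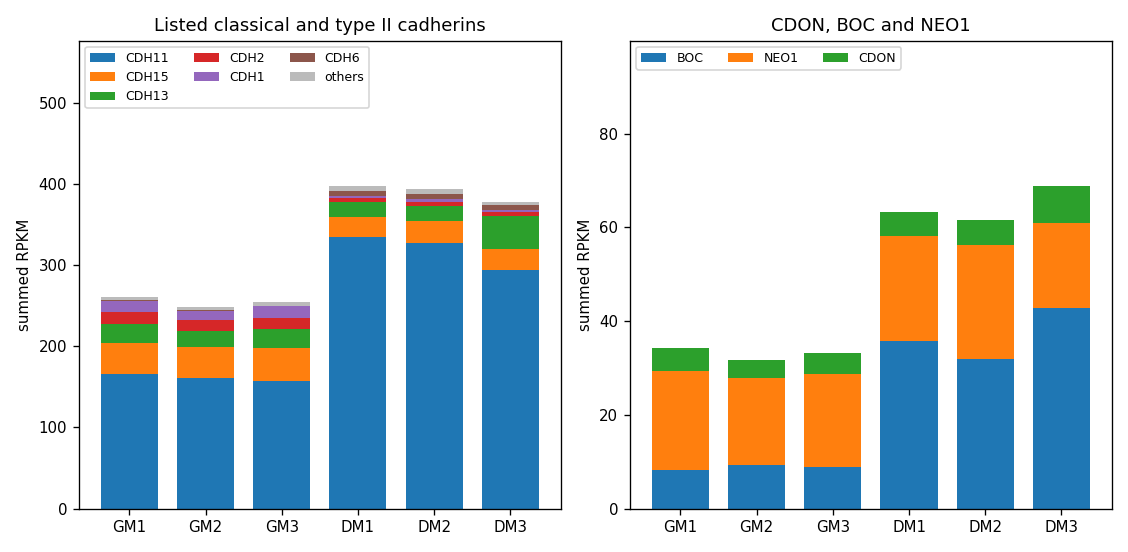
Summed RPKM of the listed cadherins (left) and of CDON, BOC and NEO1 (right) in each of the 6 samples, as stacked bars from 0 with a colour per gene. BOC takes 24.1 to 29.4% of the receptor sum in GM and 51.9 to 62.1% in DM samples, and CDH11 takes 61.7 to 64.7% of the cadherin sum in GM and 78.0 to 84.3% in DM samples.

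Among ligands and partners of these receptors, 10 of 18 tested genes were called (55.6%), 5 higher and 5 lower in DM. Of all tested genes 25.3% were called, 15.0% higher and 10.3% lower. The median of the list was -0.05 on the log2 scale. NTN1, the secreted ligand netrin-1, fell from 38.6 ± 1.49 to 3.23 ± 1.198 CPM (log2 fold change -3.58 ± 0.21, adjusted p = 1.37e-07). HFE2, or hemojuvelin, a muscle-enriched neogenin ligand and BMP co-receptor, rose from 1.64 ± 0.546 to 8.78 ± 3.94 CPM (2.43 ± 0.33), with DM replicate 3 at 201% of the mean of the other DM samples. The other repulsive guidance molecules went the opposite way, RGMA at -1.15 and RGMB at -1.18. The netrin receptors UNC5B and UNC5C rose by 2.37 and 2.40 on the log2 scale, and UNC5A fell by 2.08. The size of the UNC5C change rests in part on DM replicate 3, without which it was 1.66. GAS1, which shares Hedgehog binding with CDON and BOC, rose by 1.22, while SHH and IHH had 0 counts in every sample and DHH had at most 7. A count of 0 allows for up to 3 counts in a library, a limit that covers counting error only.

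Of 15 tested effectors of CDON and Hedgehog signalling, 3 were called (20%, against 25.3% of all tested genes), 2 higher and 1 lower. An adjusted p under 0.05 was reached by 13, against 63.0% of all tested genes. MAP2K6, a kinase that activates p38, rose from 6.30 ± 0.407 to 26.7 ± 5.94 CPM (log2 fold change 2.08 ± 0.15, adjusted p = 7.58e-07). FYN, a Src-family kinase, rose from 29.3 ± 1.72 to 73.4 ± 8.39 CPM (1.32 ± 0.093, adjusted p = 5.89e-07). The p38 alpha kinase gene MAPK14 was 0.40 higher on the log2 scale, below the fold needed for a call. The Hedgehog target GLI1 was the gene called lower, at -1.03 (adjusted p = 0.0118), a call that was lost without DM replicate 3, at -0.71, and without GM replicate 3, at -0.97.

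Both muscle cadherins were lower in DM, by different amounts. CDH15 (ENSBTAG00000011530, chromosome 18, 14302696 to 14321678, plus strand) had 108, 110 and 117 CPM in GM samples and 74.3, 80.3 and 77.3 CPM in DM samples. The groups were well apart and tight within each medium. The mean was 111.6 ± 4.91 CPM in GM and 77.3 ± 2.97 CPM in DM. This gave a log2 fold change of -0.53 ± 0.064, or 1.44-fold lower with a 95% interval of 1.31 to 1.59 (adjusted p = 3.32e-05, edgeR). The difference passed the test but not the 2-fold minimum.

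CDH2 (ENSBTAG00000021190, chromosome 24, 28992666 to 29241119, plus strand) had 61.8, 57.8 and 58.7 CPM in GM samples and 20.9, 21.4 and 22.8 CPM in DM samples. Its log2 fold change was -1.45 ± 0.071, or 2.74-fold lower with a 95% interval of 2.46 to 3.06 (adjusted p = 4.70e-08, edgeR), and 6.70% of tested genes fell more. By RPKM CDH2 went from above 63.3% to above 40.9% of tested genes, and CDH15 from above 83.7% to above 78.5%. The ratio of CDH15 to CDH2 by RPKM was 2.55, 2.79 and 2.93 in GM and 5.22, 5.50 and 4.98 in DM samples, a 1.90-fold difference (exact permutation p = 0.1, adjusted 0.2).

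M-cadherin and N-cadherin transcripts were a minor part of the cadherin transcripts in both media. The summed RPKM of the 18 classical and related cadherins listed was 254.5 ± 6.23 in GM and 389.7 ± 10.9 in DM samples. CDH11, or OB-cadherin, a mesenchymal cadherin that fibroblasts also express, took 63.8, 64.7 and 61.7% of it in GM and 84.3, 83.2 and 78.0% in DM. CDH15 took 14.5, 15.5 and 16.2% in GM and 6.01, 6.79 and 6.73% in DM, and CDH2 took 5.52 to 5.68% in GM and 1.15 to 1.35% in DM. The sum was thus higher in DM while both muscle cadherins were lower. Of 19 tested cadherins and catenins other than CDH15 and CDH2, 10 were called (52.6%, against 25.3% of all tested genes), 4 higher and 6 lower. With single samples left out, 8 to 11 were called. The calls on CDH5 and CDH12, both under 1 CPM on average, were lost without some of the samples. CDH6 rose from 0.205 ± 0.0541 to 16.7 ± 0.974 CPM (log2 fold change 6.32 ± 0.19, adjusted p = 2.81e-09). CDH20 fell from 3.20 ± 0.296 CPM to 2 counts in each DM sample (log2 fold change -5.76 ± 0.34, adjusted p = 1.57e-07, edgeR). With so few DM counts the size of its fall is uncertain. The epithelial cadherin CDH1 fell by 2.17 on the log2 scale. Among catenins, CTNNA3 fell by 4.57 on the log2 scale, from 157 to 186 counts in GM to 4 to 9 counts in DM samples. ARVCF fell by 1.10 (adjusted p = 2.78e-07 for CTNNA3 and 2.68e-05 for ARVCF, edgeR). CTNNA3 overlaps other listed genes, among them a protein-coding gene on the same strand with up to 256 counts in a sample. Whether they share reads was not tested. Those not called included CTNNB1 at 0.80, CTNND1 at -0.77 and CTNNA1 at 0.07 on the log2 scale, with adjusted p-values from edgeR of 6.10e-07, 1.59e-06 and 0.328.

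JAM2 and JAM3 did not pass the test in either direction. JAM2 (ENSBTAG00000000603, chromosome 1, 10083035 to 10165613, minus strand) had 51.2, 49.1 and 48.7 CPM in GM samples and 41.6, 47.7 and 67.8 CPM in DM samples. The GM samples lay close together, and the DM samples lay on both sides of them, with DM replicate 3 at 152% of the mean of the other DM samples. The log2 fold change was 0.08 ± 0.15 with a 95% interval of -0.25 to 0.40 (adjusted p = 0.670, edgeR), so a change of up to 1.32-fold upward or 1.19-fold downward lies within the interval. Without DM replicate 3 it was -0.15 with an adjusted p of 0.104, the lowest of a range that reached 0.921.

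JAM3 (ENSBTAG00000003176, chromosome 29, 33546279 to 33577319, minus strand) was at 87.0, 86.9 and 87.9 CPM in GM and 87.8, 90.2 and 86.0 CPM in DM samples. Its samples overlapped, and its log2 fold change of 0.01 ± 0.058 had a 95% interval of -0.12 to 0.14 (adjusted p = 0.863, edgeR), the narrowest of the 9. The ratio of JAM2 to JAM3 by RPKM was 1.12, 1.07 and 1.05 in GM and 0.899, 1.003 and 1.496 in DM samples (exact permutation p = 1). CLMP, a relative of the JAMs, held 47.8% of the summed RPKM of the 7 listed JAM family genes in GM and 43.6% in DM samples. This was more than JAM2 or JAM3 in either. Of 18 JAM relatives and polarity partners tested, 12 had an adjusted p under 0.05, against 63.0% of all tested genes. Of the 18, 2 were called (11.1%, against 25.3% of all tested genes), both lower. These 2 were TJP3, a tight junction scaffold, from 2.62 ± 0.17 to 1.21 ± 0.267 CPM (log2 fold change -1.11 ± 0.24), and the polarity gene PARD6B. PARD6B, with a mean under 1 CPM, was at -1.79 (adjusted p = 0.00685, edgeR).

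ADAM12 (ENSBTAG00000012444, chromosome 26, 45848827 to 46238138, minus strand) had 173, 177 and 167 CPM in GM samples and 178, 160 and 160 CPM in DM samples. The DM samples spanned the GM range. The log2 fold change was -0.05 ± 0.065 with a 95% interval of -0.20 to 0.09 (adjusted p = 0.485, edgeR). A microRNA gene on the same strand lies within ADAM12, with at most 1 count in any sample, and no other of the 9 genes overlaps a listed gene. ADAM12 took 19.5 ± 0.88% of the summed RPKM of the 10 listed ADAM genes in GM and 19.2 ± 1.30% in DM samples. This sum covers ADAM12 and the ADAMs of its partner list only.

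Of 19 tested ADAM relatives, substrates and binding partners, 9 were called (47.4%, against 25.3% of all tested genes), 2 higher and 7 lower. With single samples left out, 7 to 9 were called. The call on ADAM22, at 0.299 CPM in GM and 0.104 CPM in DM, was lost without most of the samples. Without DM replicate 3 its log2 fold change was -1.35 (adjusted p = 0.106, edgeR). The median of the list was -0.31 on the log2 scale. ACTN2, the sarcomeric alpha-actinin, rose from 12.4 ± 5.34 to 188 ± 55.9 CPM (log2 fold change 3.92 ± 0.31, adjusted p = 1.47e-06), and was at 40.6% of the mean of the other GM samples in GM replicate 2. IGFBP5, an insulin-like growth factor binding protein that ADAM12 can cleave, fell from 102 ± 13.1 to 4.999 ± 1.13 CPM (-4.36 ± 0.16, adjusted p = 7.04e-09). ADAM8 fell by 2.99, the laminin receptor subunit ITGA7 by 1.96 and the heparan sulphate proteoglycan SDC4 by 1.48 on the log2 scale.

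Compared per length, the order of the 9 genes changed between the media. ADAM12 was the highest in both, with 54.6, 55.5 and 52.4 RPKM in GM and 51.3, 47.8 and 47.1 RPKM in DM samples. In GM it was followed by CDH15, JAM2, JAM3, NEO1, CDH2, BOC, TMEM8C and CDON. Samples of neighbours in that order overlapped only for BOC and TMEM8C and for TMEM8C and CDON. In DM the order was ADAM12, BOC, TMEM8C, JAM2, CDH15, JAM3, NEO1, CDON and CDH2. There, neighbours from BOC through to JAM3 overlapped, so their order is within the spread of the samples, whereas ADAM12 had samples clear of its neighbour. JAM3 and NEO1, at 24.29 and 24.26 RPKM in their nearest DM samples, and CDON and CDH2, at 5.118 and 5.107 RPKM, did not overlap but nearly touched, so these places in the order are not firm either. BOC went from 8.26, 9.31 and 8.97 to 35.7, 31.9 and 42.8 RPKM, and TMEM8C from 9.63, 4.997 and 10.9 to 29.7, 30.5 and 39.5 RPKM. CDH2 went from 14.8, 13.8 and 14.0 to 4.58, 4.86 and 5.11 RPKM and had the lowest mean of the 9 in DM. RPKM scales by the summed counts alone, which moves the median log2 fold change of all genes from 0.03 to -0.07. JAM3 and ADAM12 therefore read slightly lower in DM by RPKM with no overlap of the groups, while their CPM values overlapped.

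**Figure D4:**
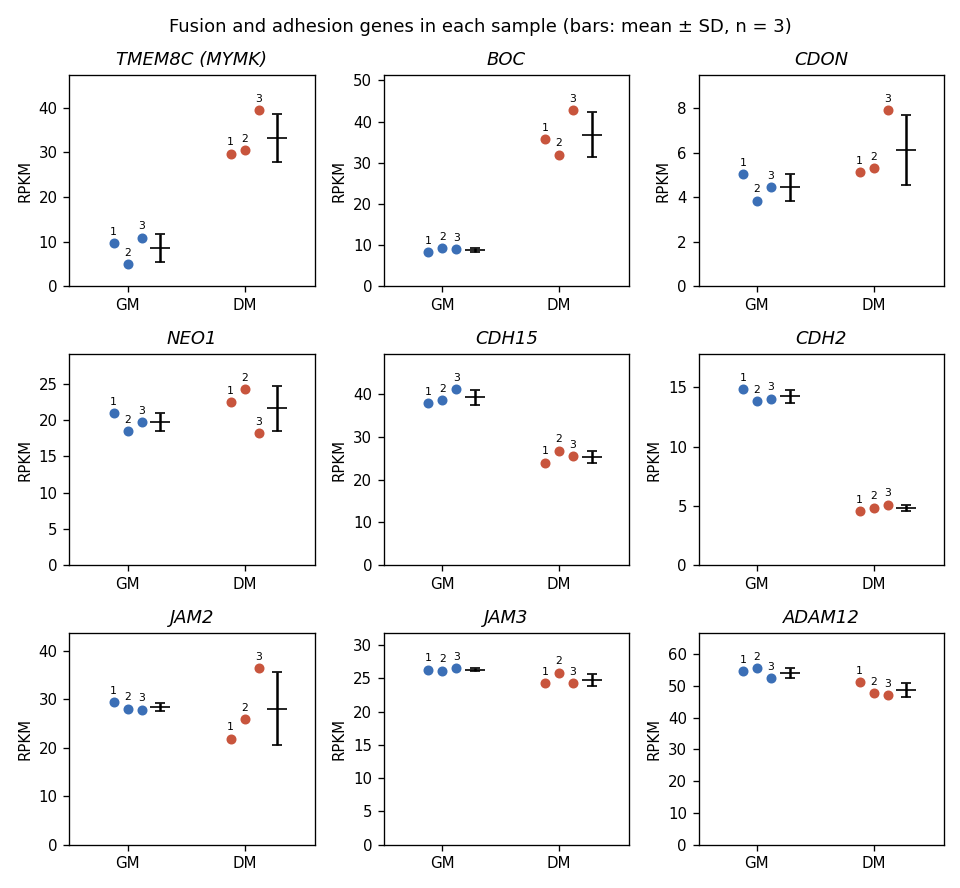
RPKM of each of the 9 genes in every sample, with a panel per gene and axes starting at 0. Points are samples, numbered by replicate, and bars are the mean ± SD of the 3 samples of a medium. ADAM12 lies at 47.1 to 55.5 RPKM throughout, TMEM8C and BOC lie higher in all DM than in all GM samples, and the JAM2 panel has a single high DM sample at 36.3 RPKM.

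The 9 genes are each listed with 1 mRNA transcript, whose counts equal those of the gene in every sample, so the transcript table adds no view of isoforms. In the fit over 16352 mRNA transcripts, the same 3 were called, where 25.6% of all transcripts were.

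Other genes of the fusion machinery were taken from lists written by function. Of 149 tested partner genes in 8 lists, 42 were called (28.2%), 19 higher and 23 lower, where 25.3% of all tested genes were. An adjusted p under 0.05 was reached by 108, against 63.0% of all tested genes. The median of the partner genes was 0.04 on the log2 scale. Among 23 genes for membrane remodelling and cell recognition in fusion, 4 were called higher and 1 lower. This was 21.7%, against 25.3% of all tested genes, and the median of the list was 0.38. ADGRB1, a phosphatidylserine receptor, rose from 1.54 ± 0.334 to 6.38 ± 0.194 CPM (log2 fold change 2.04 ± 0.20, adjusted p = 5.70e-06). DYSF, the membrane repair protein dysferlin, rose from 24.3 ± 2.15 to 71.5 ± 25.2 CPM (1.56 ± 0.20, adjusted p = 5.09e-05), with DM replicate 3 at 176% of the mean of the other DM samples. PLD1, a phospholipase, rose by 1.04, and ARHGAP26, or GRAF1, fell by 1.03 on the log2 scale, both so near the 2-fold minimum that some samples left out took them under it (PLD1 0.99 without GM replicate 3 or DM replicate 2, ARHGAP26 -0.96 without GM replicate 1 and -0.97 without DM replicate 2). The fourth gene called higher, NPHS1, had 1, 1 and 0 counts in GM and 2, 1 and 34 in DM samples, so its rise rests on DM replicate 3. Without that sample its log2 fold change was 1.23 (adjusted p = 0.506, edgeR). The call was also lost with any single GM sample left out (adjusted p = 0.0715 to 0.0851, edgeR).

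None of the 24 tested genes of the actin machinery that drives fusion was called by edgeR or DESeq2. By edgeR 25.3% of all tested genes were called. Of the 24, 17 had an adjusted p under 0.05, 8 higher and 9 lower, against 63.0% of all tested genes. An unadjusted p under 0.05 was reached by 18 of the 24 and by 10358 of all 15576 tested genes. The median log2 fold change of the 24 was -0.11. The extremes included TRIO, a guanine exchange factor for Rac, at -0.91 ± 0.073, and WIPF1, a WASP partner, at 0.86 ± 0.090. Of 14 other adhesion genes, 3 were called (21.4%, against 25.3% of all tested genes). PVRL1, or nectin-1, fell from 52.7 ± 1.35 to 14.7 ± 1.69 CPM (log2 fold change -1.84 ± 0.091, adjusted p = 5.07e-08), ITGA4, the alpha 4 integrin subunit, rose from 3.17 ± 0.621 to 7.87 ± 1.30 CPM (1.31 ± 0.19, adjusted p = 0.000157), and SDC3, or syndecan-3, rose by 1.18.

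**Figure D5:**
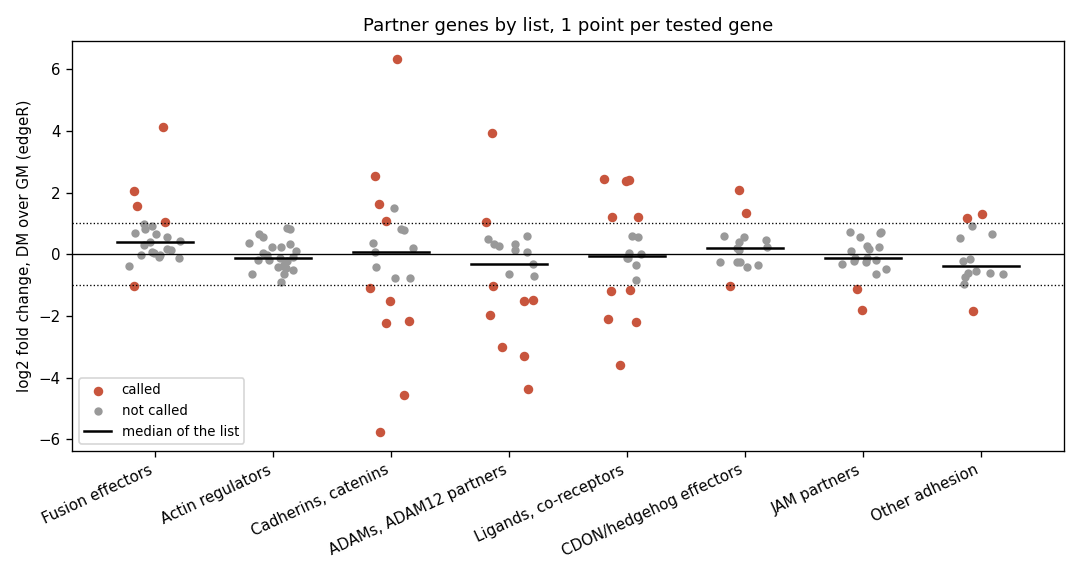
Log2 fold change (DM over GM) of each tested gene in the 8 partner lists, with a column of points per list, red for called and grey for not called genes, a black bar at each list's median and dotted lines at 2-fold changes. The fusion effector list has its median at 0.38, the actin machinery list stays between the 2-fold lines with its median at -0.11, and the cadherin list holds the largest rise, CDH6 at 6.32, and the largest fall, CDH20 at -5.76.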

How the data were processed

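The authors deposited raw read counts per gene and per mRNA transcript, and RPKM values that equal these counts scaled by the deposited length and the sample's summed counts. The study's methods name HISAT2 and the buffalo assembly, the submitters' processing notes name Bowtie 0.12.2 with mm8 and mm9, and the tables carry cattle Ensembl identifiers with no build, so the reference behind the counts is not settled. Columns of the authors' own comparisons were not used. Features with at least 10 counts in total entered the quasi-likelihood test of edgeR 4.0.16 (TMM, glmQLFit and glmQLFTest) under R 4.3.3, with Benjamini-Hochberg adjustment over all of them. A call required a fold change of over 2 in either direction with an adjusted p under 0.05. Standard errors came from the F statistic. DESeq2 1.42.0, limma 3.58.1, Python 3.11.15, pandas 2.3.3, numpy 2.4.6, scipy 1.17.1 and matplotlib 3.10.9 were also used, and scripts were tested on simulated data. Alternatives were DESeq2, other scalings, other filters on low counts, other thresholds, a replicate block, transcript sums and each sample left out. The genes studied and all lists were chosen with earlier results of these data known. Partner genes named were the 2 called genes of each list with the largest change and a mean of at least 1 CPM. Other partner genes were named after their values were seen. Ratios between genes used RPKM and an exact permutation test.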

Additional observations from a re-analysis of the deposited data

How the results depend on the processing

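The calls on TMEM8C and BOC (higher) and CDH2 (lower) held under DESeq2, other scalings and filters, the test against a 2-fold change and each sample left out, with 3 of the 9 genes called throughout. Dropping the minimum fold change gave 5 of the 9, 108 partner genes and 9813 genes. The RPKM filter of the study's methods gave 24 partner genes and 2197 genes, and the test against a 2-fold change gave 23 and 2293. With single samples left out, 37 to 41 partner genes and 3654 to 4029 genes were called. With library size alone 52.8% of 3927 calls were higher, against 59.2% of 3936 with TMM, and DESeq2 called 3673. Signs turned for genes that did not pass the test: JAM2 to -0.020 and JAM3 to -0.085 with library size alone, JAM2 to -0.15 without DM replicate 3 (0.23 without DM replicate 1), and ADAM12 to 0.0021 under the RPKM filter. ADAM12 had an adjusted p of 0.0475 with library size alone, in a range of 0.0475 to 0.978. Deviations of same-numbered GM and DM samples had r from -0.022 to -0.0076. The labels do not say whether numbers pair the samples, and values of r near 0 cannot exclude it. The fit with the replicate number as a block called 3837 genes, 40 partner genes and the 3 of 9. The cause of these shifts was not tested.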

Other observations

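The 10 listed ADAM genes, ADAM12 among them, changed in make-up. Their sum changed little, from 279 RPKM in GM to 255 RPKM in DM samples. ADAM9 went from 23.4 to 33.5% of the sum, with a log2 fold change of 0.48 ± 0.080 (adjusted p = 0.000346, edgeR). ADAM19, or meltrin beta, went from 20.8 to 12.9% (-0.72 ± 0.078, adjusted p = 1.54e-05). ADAM33 was called higher at 1.06 ± 0.18, a call that was lost without DM replicate 3, at 0.84, and without GM replicate 2, at 0.99.

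Among other cadherins, DM replicate 3 differed from the other DM samples in opposite directions. CDH13, a cadherin anchored by a lipid tail, was at 221% of the mean of the other DM samples, and CDH7 was at 21.0% of theirs. The same sample was at 195% for POSTN, 60.7% for DCN, 155% for MYH3, 55.3% for MYOD1 and 52.6% for PAX7.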
